A study of Mus musculus with 9 samples.

Results

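Complement components and regulators were followed by the signals of C1qa, C1qb, C1qc, C4b, Cfb, Serping1, Cd59a and Clu. They were looked up by gene symbol in the array annotation, and 8 of the 9 genes named for the group had a row among the 19505 genes measured. C3, the ninth, was not analysed here. Each of the 8 genes had 1 row, so no choice between rows was needed. The genes were chosen by pathway with earlier results of these same 9 arrays in view, so their log2 signals and group differences count as used in the choice. The levels and differences of the 8 genes are therefore given as descriptions, with no p-value printed for any single gene. Counts of the 8 past a threshold stand only beside the share of all genes, and nothing is read from them. Other complement genes, listed by pathway role, were tested beside the 8.

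Complement is a cascade of plasma and tissue proteins that marks damaged cells and microbes for removal. The classical pathway starts when C1q binds a surface, the lectin pathway when mannose-binding lectin does, and the alternative pathway amplifies both. All lead to the splitting of C3, to tags that phagocytes recognise and, through the terminal components, to a pore in the target membrane. Host cells protect themselves with soluble and membrane-bound inhibitors. In the infarcted heart complement is known for its part in the clearance of dead muscle and in inflammation.

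The tissue was the border of the infarct, dissected from mouse hearts 4 weeks after ligation of the left anterior descending coronary artery. The groups were 3 hearts injected with iCM-Ex (exosomes, small vesicles precipitated from cultured cardiomyocytes), 3 injected with iCM (cardiomyocytes differentiated from induced pluripotent stem cells and grown until they beat) and 3 injected with saline, 9 arrays in all. All animals were female SCID mice of 80 to 100 days, a strain without functional T and B lymphocytes, and all were infarcted. Each group held 3 biological replicates on 1 Clariom S array each, and the species of the stem cells is not given in the sources used here.

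Values are the authors' log2 signals, so a difference of 1 is a doubling, and the number of arrays limits the precision. Several arrays stood apart. Saline replicate 1 had a median gene signal of 5.44, against 5.64 to 5.70 on the other 8 arrays. Markers of alveolar lung cells had a mean log2 signal of 8.72 in iCM-Ex replicate 3 and 11.51 in iCM replicate 1, against 4.59 to 5.95 on the other 7 arrays. The lung marker Sftpc also reached 11.02 in iCM replicate 2, over 3 log2 units above its median of the 9 arrays. No other listed lung marker did so on that array. Skeletal muscle markers averaged 13.01 and fat markers 8.78 in iCM replicate 2, against at most 6.83 and 5.60 elsewhere. Control separation, the gap between the medians of positive and negative control rows, was 3.77 ± 0.21 in iCM-Ex, 2.94 ± 0.41 in iCM and 3.44 ± 0.15 in saline (SD, n = 3 each). Median negative controls averaged 4.86 in iCM-Ex, 5.31 in iCM and 5.29 in saline, and a signal near or below them has an uncertain size of change. The labelled tissue bore the markers of heart muscle, whose 12 measured markers averaged 16.19 to 17.96 on the arrays. For liver cells, the main source of plasma complement, the mean of 11 hepatocyte markers was 4.20 to 4.98, near the negative controls. Of these markers Ahsg reached 8.27 in iCM replicate 3 and Serpina1a 7.63 in saline replicate 2, and Alb, the defining one, had 4.41 to 5.71.

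C1qa, C1qb and C1qc were high on all 3 iCM-Ex arrays and on 1 of the 3 saline arrays. C4b and Cfb were low in saline replicate 1 and varied by over 3 log2 units among the iCM arrays. Serping1, Cd59a and Clu were lower on every iCM array than on any iCM-Ex or saline array. In the contrast of iCM with saline 3 of the 8 genes passed limma's adjusted p of 0.05, all 3 lower, where 3.67% of all genes passed and 2.33% passed on the lower side. In iCM-Ex against saline 0 of the 8 passed, where 0.349% of all genes did, and 3 had an unadjusted p under 0.05, as had 15.2% of all genes. In iCM-Ex against iCM 1 of the 8 passed, on the higher side, where 1.07% of all genes passed and 0.795% passed on that side. These counts come from contrasts that were in view when the genes were chosen, so nothing is read from them. The median difference over the 8 genes was −0.32 for iCM minus saline, 1.86 for iCM-Ex minus saline and 2.33 for iCM-Ex minus iCM, beside 0.08, 0.04 and −0.04 over all genes.

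**Figure D1:**
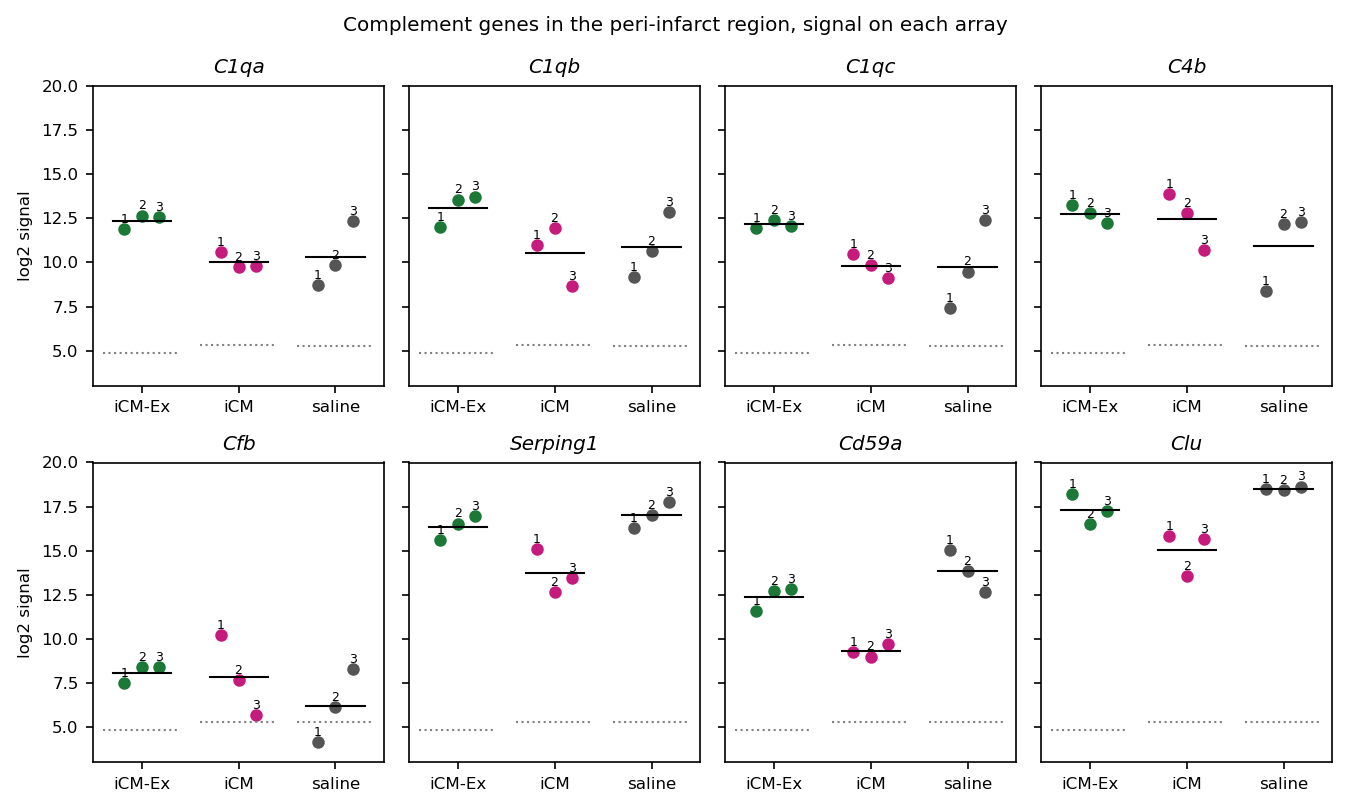
Log2 signal of 8 complement genes on each array, by group, with the replicate number above each point, the group mean as a line and the group's mean negative control as a dotted line. Cd59a lies between 9.0 and 9.72 on the iCM arrays and at 11.57 or above on all others, while Clu lies at 18.42 to 18.64 in saline.

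C1qa, C1qb and C1qc encode the A, B and C chains of C1q, the recognition molecule of the classical pathway, made in tissues mostly by macrophages. C1qa had a log2 signal of 11.87, 12.66 and 12.56 in iCM-Ex hearts, 10.58, 9.72 and 9.79 in iCM hearts and 8.69, 9.87 and 12.37 in saline hearts. The iCM-Ex arrays lay above all iCM arrays, while the highest saline array lay within the iCM-Ex range. Its mean difference was 2.05 ± 0.75 (log2, SE) for iCM-Ex minus saline, 2.33 ± 0.75 for iCM-Ex minus iCM and −0.28 ± 0.75 for iCM minus saline. C1qb had signals of 12.01, 13.57 and 13.73 in iCM-Ex, 10.98, 11.96 and 8.67 in iCM and 9.18, 10.64 and 12.88 in saline. Here iCM-Ex and iCM came close, at 12.01 and 11.96, without overlapping. C1qc had signals of 11.95, 12.42 and 12.08 in iCM-Ex, 10.49, 9.85 and 9.13 in iCM and 7.40, 9.48 and 12.42 in saline. The saline arrays thus covered a wider range than the iCM-Ex or the iCM arrays for all 3 chains. The mean of the chains was 12.54 ± 0.52 in iCM-Ex, 10.13 ± 0.81 in iCM and 10.32 ± 2.08 in saline (SD, n = 3 each).

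The difference of the chains from saline depended on which saline array was counted. Without saline replicate 1 iCM-Ex minus saline was 1.25 for C1qa, 1.34 for C1qb and 1.20 for C1qc, and without saline replicate 3 it was 3.08, 3.19 and 3.71. For iCM minus saline even the direction followed that choice, at −1.09, −1.22 and −1.13 without saline replicate 1 and 0.75, 0.63 and 1.38 without saline replicate 3. Between iCM-Ex and iCM each chain kept a positive difference whichever array was left out, from 1.63 to 3.28. Without the 3 arrays that held markers of lung, muscle or fat, which leaves 1 iCM array, iCM-Ex minus iCM was 2.48 for C1qa, 4.12 for C1qb and 3.05 for C1qc, and iCM minus saline was −2.23 for C1qb. With control separation as a covariate iCM-Ex minus iCM was 0.81 for C1qa, 2.93 for C1qb and 0.85 for C1qc.

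**Figure D2:**
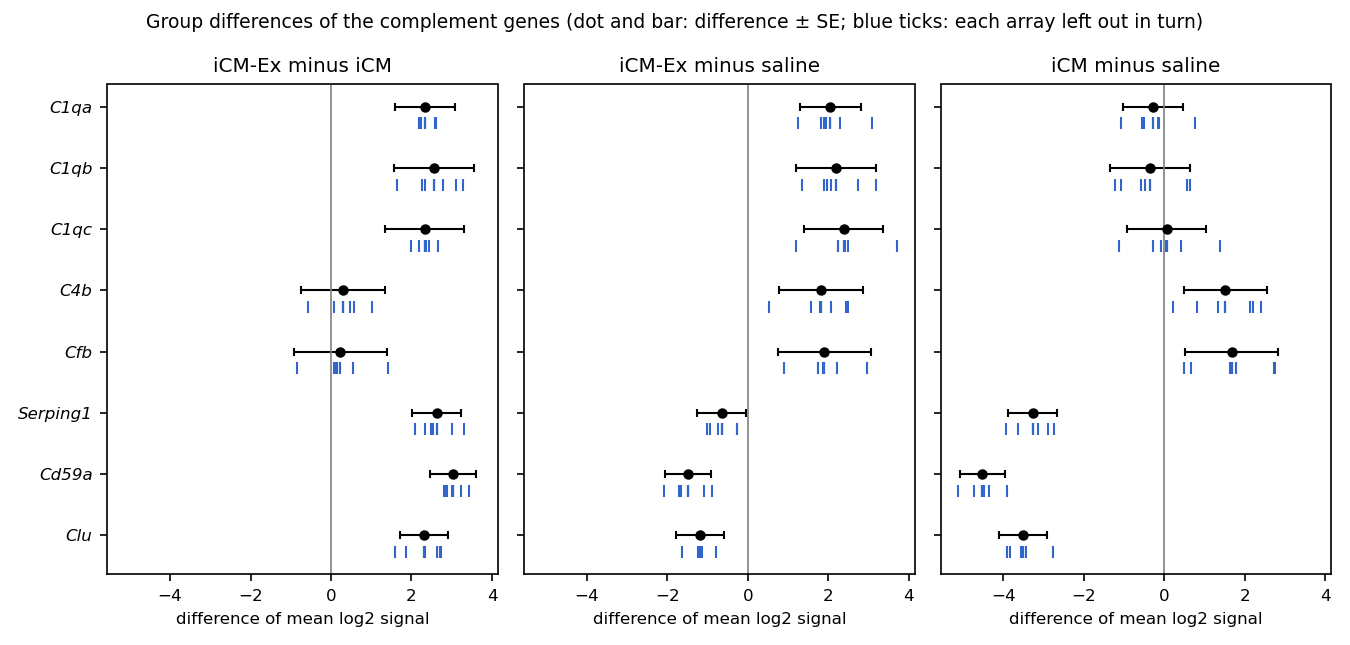
Differences of mean log2 signal for 8 complement genes in 3 contrasts, with the moderated standard error as a bar and the value on leaving out each of the 9 arrays as blue ticks. The ticks of Serping1, Cd59a and Clu stay below 0 for iCM minus saline, and those of the C1q chains lie on both sides of it.

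C1q signals moved with the mean of the macrophage markers. The mean of 10 of the 12 listed macrophage markers was 10.96, 11.41 and 11.41 in iCM-Ex, 9.94, 10.06 and 8.82 in iCM and 8.53, 9.90 and 11.40 in saline. The 4 arrays with the highest C1q signals were also the 4 with the highest macrophage means. Over the 9 arrays Pearson's r between the C1q mean and the macrophage mean was 0.99 and Spearman's rho 0.967, given as a description since both come from the same arrays. Taken as deviations from the group means, r was 0.988. Single markers differed, and Cd163 and Mertk of the same list were each highest on an iCM array. Cd163 was at 6.39, 6.96 and 7.27 in iCM-Ex, 7.31, 8.46 and 9.79 in iCM and 5.62, 6.12 and 6.54 in saline. Mertk was at 6.92, 6.27 and 6.45 in iCM-Ex, 6.58, 8.27 and 6.72 in iCM and 6.39, 7.47 and 7.24 in saline. The receptor gene Csf1r, which defines the macrophage lineage, had a signal of 11.39, 13.05 and 12.97 in iCM-Ex, 10.38, 9.90 and 8.74 in iCM and 9.49, 11.38 and 13.01 in saline. In a piece of tissue a change in the number of such cells and a change in RNA per cell cannot be told apart. The same holds for each gene below. Among 9518 other genes above the median signal, those whose pattern over the 9 arrays was most like the C1q mean were Fabp7 (r = 0.984), Tyrobp (r = 0.978) and Fcgr3 (r = 0.974).

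**Figure D3:**
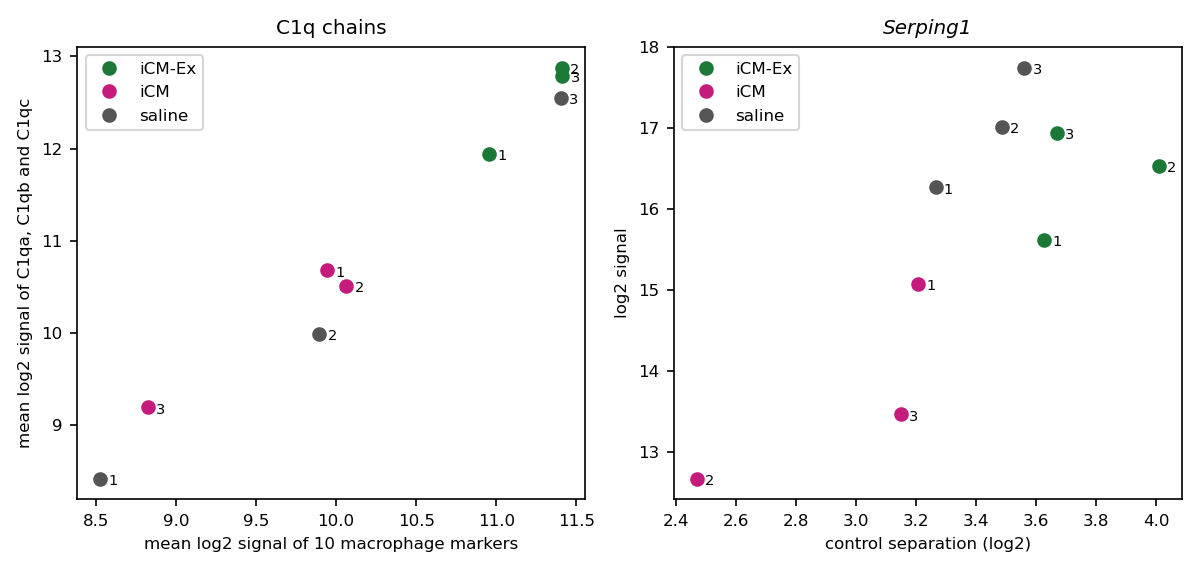
Left, mean log2 signal of the C1q chains against that of 10 macrophage markers. Right, log2 signal of Serping1 against control separation, the log2 gap between positive and negative controls. Each point is 1 array, labelled with its replicate number and coloured by group, and the iCM arrays hold the 3 lowest Serping1 signals and the 3 lowest control separations.

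The 3 C1q genes neighbour each other on mouse chromosome 4. The RefSeq promoter table (GRCm38.p6, 250 bases before to 50 after the start) held C1qb and C1qc, and these are shown because their signals moved together over the arrays (r = 0.885). The windows are chr4:136886151-136886450 and chr4:136892865-136893164, both read on the minus strand, with capitals marking matches to the motifs named next.
C1qb: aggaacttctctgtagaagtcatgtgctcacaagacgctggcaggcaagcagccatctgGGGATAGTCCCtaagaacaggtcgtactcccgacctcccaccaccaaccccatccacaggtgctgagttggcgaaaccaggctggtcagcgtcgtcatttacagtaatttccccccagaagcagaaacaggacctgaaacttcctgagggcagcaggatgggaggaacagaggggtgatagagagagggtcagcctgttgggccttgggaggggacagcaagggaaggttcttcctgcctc
C1qc: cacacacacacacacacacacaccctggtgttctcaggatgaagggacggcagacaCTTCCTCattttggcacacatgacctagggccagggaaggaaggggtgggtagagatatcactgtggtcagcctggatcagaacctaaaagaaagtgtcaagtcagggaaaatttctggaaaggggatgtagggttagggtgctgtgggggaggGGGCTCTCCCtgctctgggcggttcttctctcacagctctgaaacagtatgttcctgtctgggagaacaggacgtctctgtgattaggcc
Each window was searched on both strands for GAGGAAG (PU.1, a factor of myeloid cells), the interferon-stimulated response element (ISRE, written GAAA, any 2 bases, GAAA), TTCNNNGAA (the interferon-gamma activated site) and kappa-B (GGGA, any 4 bases, CC). These occur in 13.6%, 3.44%, 8.3% and 20.7% of the 32851 windows in the table. C1qc held the PU.1 letters 194 bases before the start and the kappa-B letters 40 bases before it, both on the opposite strand. C1qb held the kappa-B letters on both strands, in overlapping matches 191 and 190 bases before the start. A match is a description of the letters only.

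C4b encodes the component C4, which C1 and the lectin pathway proteases split to build the enzyme that cleaves C3. Its log2 signal was 13.24, 12.79 and 12.25 in iCM-Ex, 13.88, 12.81 and 10.69 in iCM and 8.35, 12.18 and 12.29 in saline. All groups overlapped, and saline replicate 1 lay below every other array. The difference was 1.82 ± 1.04 for iCM-Ex minus saline, 1.52 ± 1.04 for iCM minus saline and 0.30 ± 1.04 for iCM-Ex minus iCM, and without saline replicate 1 the differences from saline were 0.53 and 0.22. Without the 3 arrays with markers of other tissues iCM minus saline was −0.25 and iCM-Ex minus iCM 2.33, and with control separation as a covariate iCM-Ex minus iCM was −0.59. C4a, a closely related copy beside it, could share signal with C4b, which was not tested.

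Cfb encodes factor B, the serine protease of the alternative pathway. Its log2 signal was 7.47, 8.39 and 8.41 in iCM-Ex, 10.22, 7.66 and 5.68 in iCM and 4.16, 6.12 and 8.28 in saline. The iCM arrays spanned nearly the whole range, and saline replicate 1 lay below its own median negative control of 5.07. The difference was 1.91 ± 1.15 for iCM-Ex minus saline, 1.67 ± 1.15 for iCM minus saline and 0.24 ± 1.15 for iCM-Ex minus iCM. Without iCM replicate 1, the array with the most lung marker signal, iCM minus saline was 0.49, and without all 3 arrays with markers of other tissues it was −0.50. With control separation as a covariate iCM-Ex minus iCM was −1.51. Cfb and C4b, neighbours in the class III region of the major histocompatibility complex, followed each other over the arrays (r = 0.879, rho = 0.683, n = 9). Both are known as interferon-inducible genes. The mean of 15 interferon-response genes was 7.32, 8.01 and 7.55 in iCM-Ex, 9.56, 7.47 and 9.62 in iCM and 6.37, 6.38 and 7.68 in saline. Over the 9 arrays this mean had r = 0.476 with Cfb and 0.333 with C4b, and 0.357 and 0.103 as deviations from the group means. For the macrophage mean r was 0.689 with Cfb and 0.673 with C4b, and 0.857 and 0.812 as deviations. The part of either in the signals of Cfb and C4b was not tested.

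Serping1 encodes the C1 inhibitor, a secreted serpin that inactivates the C1r and C1s proteases and the lectin pathway proteases. Its log2 signal was 15.62, 16.54 and 16.94 in iCM-Ex, 15.08, 12.67 and 13.46 in iCM and 16.27, 17.02 and 17.75 in saline. Each iCM array lay below each array of the other groups, and iCM-Ex overlapped saline. The means were 16.37 ± 0.68 in iCM-Ex, 13.74 ± 1.23 in iCM and 17.01 ± 0.74 in saline (SD, n = 3 each). The difference was −3.27 ± 0.62 (log2, SE) for iCM minus saline, 2.63 ± 0.62 for iCM-Ex minus iCM and −0.65 ± 0.62 for iCM-Ex minus saline. Control separation was likewise lower on each iCM array, at 3.21, 2.47 and 3.15, than on the iCM-Ex arrays at 3.63, 4.01 and 3.67 and the saline arrays at 3.26, 3.48 and 3.56. With control separation as a covariate iCM minus saline was −2.11 and iCM-Ex minus iCM 0.68. The genes most like Serping1 over the arrays were Ift20 (r = 0.994), Stard10 (r = 0.993) and Slc48a1 (r = 0.992).

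Cd59a encodes the membrane-anchored protein CD59, which blocks the assembly of the terminal pore on host cells. Its log2 signal was 11.57, 12.70 and 12.80 in iCM-Ex, 9.25, 9.0 and 9.72 in iCM and 15.05, 13.85 and 12.65 in saline. The iCM arrays lay close together and below every other array, and saline replicate 3 lay within the iCM-Ex range. The difference was −4.52 ± 0.56 for iCM minus saline, a 23.0-fold lower signal, 3.03 ± 0.56 for iCM-Ex minus iCM and −1.49 ± 0.56 for iCM-Ex minus saline. On leaving out any array it lay between −5.12 and −3.92 for iCM minus saline, and it was −4.51 with control separation as a covariate. Without the 3 arrays with markers of other tissues it was −4.12. As deviations from the group means Cd59a and the C1q mean had r = −0.729. In saline hearts the array with the highest Cd59a signal had the lowest C1q mean, while in iCM-Ex hearts both were lowest in replicate 1. Slc35a4 (r = 0.985), Hacd1 (r = 0.982) and Bag6 (r = 0.981) had the most similar patterns.

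Clu encodes clusterin, a secreted chaperone that also binds the terminal components and keeps the pore from inserting. Its log2 signal was 18.21, 16.51 and 17.26 in iCM-Ex, 15.83, 13.56 and 15.66 in iCM and 18.51, 18.42 and 18.64 in saline. The saline arrays lay close together and above all others, so that Clu was the 1 gene of the 8 whose iCM-Ex and saline arrays did not overlap. Over all genes 9.53% were lower in iCM-Ex than in saline without overlap. The difference was −3.51 ± 0.60 for iCM minus saline, −1.19 ± 0.60 for iCM-Ex minus saline and 2.31 ± 0.60 for iCM-Ex minus iCM. The lowest signal was in iCM replicate 2, the array with muscle and fat markers, and without it iCM minus saline was −2.78 and iCM-Ex minus iCM 1.59. With control separation as a covariate iCM-Ex minus iCM was 1.03. Nptn (r = 0.960), Gaa (r = 0.960) and Tmem59 (r = 0.953) were most like Clu.

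Serping1, Cd59a and Clu were the 3 genes whose iCM arrays all lay below the saline arrays, as did 10.2% of all genes. In iCM-Ex against iCM 6 of the 8 genes were higher without overlap, the C1q chains and these 3 inhibitors, beside 10.2% of all genes on that side. Over the 9 arrays the inhibitors correlated with each other at r = 0.799 to 0.857, but as deviations from the group means only at −0.162 to 0.355. Fibroblast markers, a cell type known to make clusterin and the C1 inhibitor, averaged 15.97, 15.80 and 15.40 in iCM-Ex, 15.55, 14.06 and 13.55 in iCM and 14.24, 15.84 and 15.48 in saline over 11 of 12 listed genes. Over the 9 arrays the fibroblast mean had r = 0.697 with Serping1, 0.313 with Cd59a and 0.509 with Clu, and 0.624, −0.542 and 0.247 as deviations from the group means. The part of cell makeup in these differences was not tested. Control separation was lowest on the 3 iCM arrays, so its part and that of the treatment cannot be told apart, with or without the covariate.

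Beyond these 8, 54 complement genes had been listed by role, with earlier results of these arrays known, and 51 were measured. The question was whether other complement genes differed between the treatments in the fit across all genes. Of the 51, 29 had a mean above the negative controls in every group and 14 were below them in every group, among them the terminal component genes Hc, C8b and C9 and the pentraxin genes Apcs and Crp. In iCM against saline 2 rose and 2 fell by limma, 7.84% of the list beside 3.67% of all genes. In that contrast 10 of 51 had an unadjusted p under 0.05, beside 20.5% of all genes. In iCM-Ex against saline 0 passed, 8 of 51 had an unadjusted p under 0.05, beside 15.2% of all genes, and 2 passed when the arrays were weighted by quality. These 2 were Cfhr2 (1.84 ± 0.54 without weights, limma adjusted p = 0.151) and Cpn1, whose means lay below the negative controls in every group. In iCM-Ex against iCM 1 rose, 1.96% of the list beside 1.07% of all genes. Here 9 of 51 had an unadjusted p under 0.05, beside 14.5% of all genes. The list's median difference was 0.15 for iCM minus saline, 0.38 for iCM-Ex minus saline and 0.06 for iCM-Ex minus iCM, against 0.08, 0.04 and −0.04 over all genes.

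**Figure D4:**
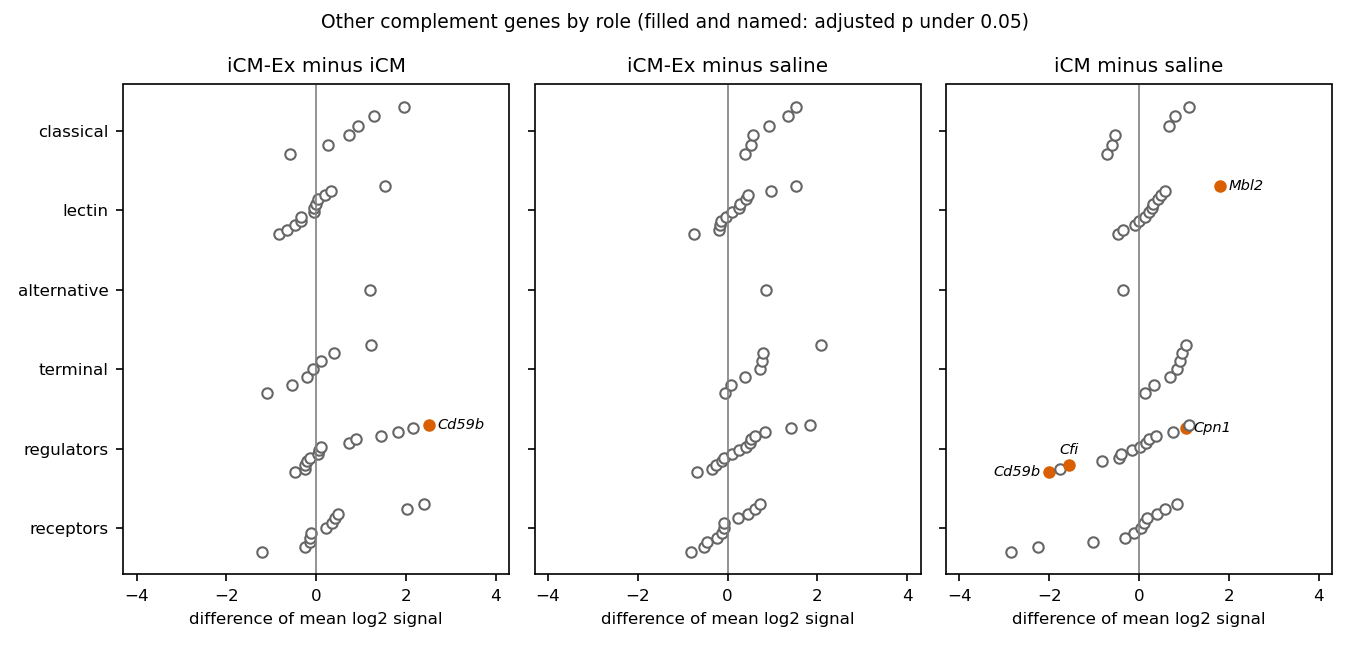
Differences of mean log2 signal for the 51 other complement genes in 3 contrasts, 1 circle per gene, arranged by role. Filled and named circles passed limma's adjusted p of 0.05, which were Cd59b in iCM-Ex minus iCM and Mbl2, Cpn1, Cfi and Cd59b in iCM minus saline.

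Of the 14 measured regulators Cd59b changed in the same contrasts in which the Cd59a signals stood apart. Cd59b, the second mouse CD59 gene, known for its expression in testis, had a log2 signal of 9.66, 10.01 and 9.82 in iCM-Ex, 6.84, 6.65 and 8.47 in iCM and 9.68, 9.36 and 8.94 in saline. The iCM arrays lay below all others. It fell by 2.01 ± 0.45 in iCM relative to saline (limma adjusted p = 0.0408) and was higher by 2.51 ± 0.45 in iCM-Ex than in iCM (limma adjusted p = 0.0386). Cd59b lost the iCM against saline call on leaving out any array but iCM replicate 3, with a highest limma adjusted p of 0.131 without iCM replicate 2, and the iCM-Ex against iCM call in 5 of 9 such fits (highest limma adjusted p 0.205, without iCM-Ex replicate 3). Without the 3 arrays with markers of other tissues the Cd59b difference was −0.85 for iCM minus saline and 1.36 for iCM-Ex minus iCM (limma adjusted p = 0.492 and 0.435). Whether the Cd59a and Cd59b probes respond to each other's transcripts was not tested.

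The genes lie close together on chromosome 2, and their promoter windows are shown because both signals were low on the iCM arrays. The windows are chr2:104095551-104095850 and chr2:104070816-104071115 on the plus strand of GRCm38.p6, from RefSeq, with capitals marking matches to the same 4 motifs.
Cd59a: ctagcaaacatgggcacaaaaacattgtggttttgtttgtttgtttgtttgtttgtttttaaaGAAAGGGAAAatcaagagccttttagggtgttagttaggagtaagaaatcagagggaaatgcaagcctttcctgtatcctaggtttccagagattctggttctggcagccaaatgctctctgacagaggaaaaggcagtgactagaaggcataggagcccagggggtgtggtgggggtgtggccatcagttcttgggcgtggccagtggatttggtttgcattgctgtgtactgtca
Cd59b: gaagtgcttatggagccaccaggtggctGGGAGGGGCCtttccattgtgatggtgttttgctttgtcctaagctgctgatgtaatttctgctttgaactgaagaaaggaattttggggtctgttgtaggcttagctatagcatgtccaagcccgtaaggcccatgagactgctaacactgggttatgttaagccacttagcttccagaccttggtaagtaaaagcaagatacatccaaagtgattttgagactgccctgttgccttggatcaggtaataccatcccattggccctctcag
Cd59a held the ISRE letters 187 bases before the start and Cd59b the kappa-B letters 222 bases before it. No other match to the 4 motifs was found in these windows.

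Cfi encodes factor I, the protease that inactivates C3b and C4b. It had a log2 signal of 5.51, 5.75 and 5.50 in iCM-Ex, 4.99, 4.55 and 4.56 in iCM and 6.16, 5.92 and 6.73 in saline, with no overlap between any of the groups. Over all genes 10.2% were lower in iCM than in saline without overlap and 9.53% lower in iCM-Ex than in saline. On the higher side of iCM-Ex against iCM 10.2% did not overlap. Cfi fell by 1.57 ± 0.29 in iCM relative to saline (limma adjusted p = 0.0217), to an iCM mean of 4.70, below the negative controls, so the size is uncertain. Without iCM replicate 2 the limma adjusted p was 0.0749, and it passed in 5 of 9 such fits. Cpn1, the catalytic subunit of carboxypeptidase N, which trims the complement fragments that attract leukocytes, passed by a narrow margin (1.04 ± 0.25, limma adjusted p = 0.0496). Its means of 4.11 in iCM-Ex, 4.32 in iCM and 3.28 in saline all lay below the negative controls, and it passed in 0 of the 9 fits without 1 array. Cr1l, the mouse inhibitor Crry, and Cd55b, a decay-accelerating factor gene, were the named regulators with the highest mean signals. Cr1l was at 13.23 ± 0.20 in iCM-Ex, 13.47 ± 0.42 in iCM and 13.32 ± 0.64 in saline, and its iCM minus saline difference was 0.15 ± 0.37 (limma adjusted p = 0.857). Cd55b was at 13.07, 13.13 and 13.06 in iCM-Ex, 12.24, 10.01 and 10.52 in iCM and 11.49, 13.28 and 13.30 in saline, and its differences of −1.77 ± 0.61 for iCM minus saline and 2.17 ± 0.61 for iCM-Ex minus iCM did not pass (limma adjusted p = 0.133 and 0.123).

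Of the 12 lectin pathway genes, 1 rose in iCM relative to saline, 8.33% beside the 3.67% of all genes that passed in either direction. It was also the only 1 of the 12 with an unadjusted p under 0.05, beside 20.5% of all genes. With 1 gene nothing is read from that share. Mbl2, a mannose-binding lectin known mostly from liver, had a log2 signal of 6.85, 6.05 and 6.48 in iCM-Ex, 6.85, 7.16 and 7.86 in iCM and 5.75, 5.04 and 5.65 in saline. It rose by 1.81 ± 0.36 in iCM relative to saline (limma adjusted p = 0.0254), and its iCM-Ex mean lay between the other means. Saline replicate 2 lay below its own median negative control of 5.48, so the size is uncertain. Mbl2 passed in 5 of 9 fits without 1 array, and its largest limma adjusted p among them was 0.0992, without saline replicate 2. Of the genes named for their mean signal, the collectin gene Colec12 was at 10.86 ± 0.39 in iCM-Ex, 9.32 ± 0.90 in iCM and 9.32 ± 1.35 in saline, and the protease gene Masp1 at 8.32 ± 0.52 in iCM-Ex, 8.13 ± 1.72 in iCM and 8.48 ± 0.29 in saline. Neither passed in any contrast.

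None of the 6 other classical pathway genes passed in any contrast by limma, and 0 had an unadjusted p under 0.05. Over all genes 20.5% had one in iCM against saline, 15.2% in iCM-Ex against saline and 14.5% in iCM-Ex against iCM. With only 6 genes nothing is read from that count. C1s1, a protease of the C1 complex, was at 13.34, 13.56 and 12.95 in iCM-Ex, 13.61, 12.84 and 11.24 in iCM and 10.28, 11.95 and 13.03 in saline. Its partner C1ra was at 11.65, 11.95 and 12.10 in iCM-Ex, 11.91, 10.25 and 9.69 in iCM and 9.24, 12.20 and 12.54 in saline. Both were lowest in saline replicate 1, like C1qa, C1qc and C4b. Their differences for iCM-Ex minus saline were 1.53 ± 0.71 and 0.57 ± 0.81 (limma adjusted p = 0.341 and 0.796). Properdin, encoded by Cfp and the 1 measured alternative pathway gene beside Cfb, was at 9.61, 10.15 and 11.17 in iCM-Ex, 9.35, 9.07 and 8.92 in iCM and 7.87, 9.78 and 10.74 in saline, and did not pass.

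None of the 7 terminal component genes passed by limma, and 2 had an unadjusted p under 0.05 in each contrast with saline. These shares are to be read against 20.5% of all genes in iCM against saline and 15.2% in iCM-Ex against saline. The 7 means were higher in iCM than in saline hearts, but those of Hc, C8a, C8b and C9 lay below the negative controls in both groups and that of C6 in saline. C7, which joins the growing pore, was at 11.53, 14.15 and 14.21 in iCM-Ex, 11.27, 13.39 and 11.58 in iCM and 9.52, 10.30 and 13.85 in saline. Its differences were 2.07 ± 1.11 for iCM-Ex minus saline and 0.86 ± 1.11 for iCM minus saline (limma adjusted p = 0.412 and 0.711). C8g, a chain of C8, was at 7.47 ± 0.27 in iCM-Ex, 7.37 ± 0.17 in iCM and 6.67 ± 0.13 in saline. Its differences from saline were 0.80 ± 0.26 for iCM-Ex and 0.70 ± 0.26 for iCM (limma adjusted p = 0.189 and 0.161). Of the 11 receptor genes 0 passed in any contrast by limma, and 2 had an unadjusted p under 0.05 in iCM against saline and 2 in iCM-Ex against iCM, beside 20.5% and 14.5% of all genes. Calr, which encodes calreticulin, a chaperone that binds C1q on dying cells, was at 16.05, 16.97 and 16.85 in iCM-Ex, 15.41, 12.60 and 14.69 in iCM and 15.58, 17.13 and 18.54 in saline, a difference of −2.85 ± 0.80 for iCM minus saline (limma adjusted p = 0.0798). C1qbp, which binds the globular heads of C1q, was at 12.66 ± 0.36 in iCM-Ex, 12.30 ± 0.23 in iCM and 12.42 ± 0.64 in saline, and its differences of −0.12 to 0.36 were no larger than the standard error of 0.36.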

How the data were processed

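The authors deposited 1 log2 signal for each probe set of each array. Affymetrix Expression Console is the tool the submitters' processing notes list, with no version, and how background and arrays were adjusted is not stated in the sources used here. Of 28846 rows 6640 were controls, and 19572 of the other 22206 had a gene symbol. For 55 genes with several rows the brightest row was kept, which left 19505 genes, and every one was found in RefSeq's gene table through its Entrez identifier. Group means of all 9 arrays were fitted with limma 3.58.1 in R 4.3.3, with variances moderated by empirical Bayes (4.23 prior and 6 residual degrees of freedom) and Benjamini-Hochberg adjustment over all genes in each of 3 two-sided contrasts. An exact permutation test of 3 against 3 arrays cannot go below 0.1. The fit was tested on simulated data.

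The 8 genes and all lists were chosen with earlier results of these data known. Named among the other complement genes were those past the threshold, the 2 brightest of each role and Cfhr2, which passed only with array weights. Genes of like pattern were the 3 with the highest Pearson's r above the median signal, predicted genes left out. The other 3 genes of that list of 54 were not analysed here. Alternatives were quantile normalisation, median centring, a filter on dim genes, all rows but controls, row means, the groups compared only, array weights, control separation as a covariate, a replicate block, each array left out, and the 3 arrays with markers of other tissues left out.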

Additional observations from a re-analysis of the deposited data

How the results depend on the processing

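Of the 51 other complement genes 4 were past the limma threshold for iCM minus saline. That count was 6 with array weights (Cd55b and Calr added), 2 under quantile normalisation, 2 among genes above the median (a filter that removes Cfi and Cpn1), 1 with the replicate block (Mbl2), and 0 in the fit of the 2 groups only, with control separation as a covariate and without the 3 arrays with markers of other tissues. It was 0 to 3 on leaving out 1 array, with 0 without iCM replicate 2, saline replicate 2 or saline replicate 3. For iCM-Ex minus saline it was 0, or 2 with array weights (Cfhr2 and Cpn1), and 0 whichever array was left out. For iCM-Ex minus iCM it was 1, and 2 with array weights, 0 with the replicate block, the covariate, the 2 groups only or without those 3 arrays, and 0 to 2 on leaving out 1 array (0 without iCM replicate 2, iCM-Ex replicate 2 or 3, or saline replicate 2). The median difference of the 8 genes for iCM-Ex minus iCM was 2.33, and 0.83 with the covariate. It ranged from −1.17 to 0.69 for iCM minus saline, 0.71 to 2.72 for iCM-Ex minus saline and 2.10 to 2.69 for iCM-Ex minus iCM on leaving out 1 array. The differences of Serping1, Cd59a and Clu for iCM minus saline kept their direction under all 19 alternatives, and so did those of the C1q chains for iCM-Ex minus iCM. Several alternatives leave such a difference of means unchanged by design, so only the rest could have changed a direction. The unchanged ones are the filter on dim genes, all rows, row means, the groups compared only, the replicate block and leaving out an array of the third group. Same-numbered arrays did not deviate together (r of −0.257 to 0.068), so the numbers were not taken as pairs. Over all genes 716 were past the threshold for iCM minus saline (126 to 803 on leaving out 1 array, 6 to 1500 under the other alternatives). For iCM-Ex minus saline 68 were (0 to 163 and 0 to 1187), and for iCM-Ex minus iCM 208 were (0 to 401 and 0 to 559). Under quantile normalisation the calls split into 418 higher and 442 lower for iCM minus saline, beside 262 and 454, and into 159 and 140 for iCM-Ex minus iCM, beside 155 and 53. For iCM-Ex minus saline median centring gave 43 higher and 38 lower, beside 43 and 25. The cause of these shifts was not tested. Signals near the negative controls limit what can be said of Cfb and Mbl2 in saline and of Cfi and Cpn1.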

Other observations

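A few complement genes outside the naming rule are given here as values, chosen after their values were seen. C3ar1, the receptor of the C3a fragment on myeloid cells, had a log2 signal of 9.55, 12.66 and 11.98 in iCM-Ex, 10.96, 8.63 and 8.51 in iCM and 9.72, 11.04 and 14.11 in saline, with its highest signal in saline replicate 3. C2, the protease partner of C4b, was at 8.53 and 8.52 in iCM replicates 1 and 2 and at 4.96 to 6.96 on the other arrays. Hc, the gene of component C5, was at 7.46 in iCM replicate 1, the array with the most lung marker signal, and at 3.35 to 4.53 on the others.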
